A study of Mus musculus with 6 samples.

Results

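Genes of the interferon response were followed in the duodenal villus epithelium of double mutant mice, in which *Smad4* is deleted and β-catenin is activated, and of wild-type mice. The set holds 9 of the 20409 features in the count table, namely *Stat2*, *Irf7*, *Isg15*, *Oas1a*, *Oas1e*, *Oas2*, *Oasl2*, *Ifit1* and *Ifit3*. The 9 genes were chosen by name, and in part they were selected on the readout itself, since *Oas1e* was taken for its absence from the mutant libraries. Their levels in double mutant and wild-type villi are therefore given as a description, without p-values. How many of the 9 passed a threshold is only counted, beside the share of all genes that did. Test results are given for other interferon genes, whose lists were also made with earlier results of these data known.

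The 3 double mutant (DM) mice carried Smad4 fl/fl, Ctnnb1 exon3 fl/wt and Villin-CreERT2 on a C57BL6-enriched background. The Villin promoter drives this Cre recombinase throughout the intestinal epithelium, and 4 daily intraperitoneal injections of tamoxifen at 0.05 g/kg switched it on, with villi taken 7 days after induction. The 3 wild-type (WT) mice were littermates that received no injection, so an effect of tamoxifen and an effect of the mutations cannot be told apart. Each group held 2 females and 1 male, the male being mouse 1 in both, and the ages of the mice and the WT littermates' floxed alleles are not given in the sources used here. Villi were shaken off the duodenum in EDTA, and polyadenylated RNA was sequenced as 1 library per mouse, so p-values measure the spread between these mice.

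Library totals ran from 19678507 to 26337318 counts, and 3 counts, the smallest level read as detection, corresponded to 0.125 to 0.163 CPM (counts per 1000000 counted, scaled here by edgeR's TMM factors). *Smad4*, the deleted gene, stood at 148 ± 30.3 CPM in WT villi and at 31.6 ± 5.40 CPM in DM villi (mean ± SD, n = 3 each). WT mouse 1 stood apart from the other libraries in its goblet cell markers. The summed level of 7 such markers was 122 CPM in WT mouse 1, against 11480 and 10830 CPM in WT mice 2 and 3 and 4390 to 4850 CPM in DM mice.

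Interferons bind receptors that activate the kinases JAK1 and TYK2, and these phosphorylate STAT proteins, STAT2 among them. With IRF9 the STAT proteins form a complex, ISGF3, that binds the interferon-stimulated response element (ISRE) in the promoters of antiviral genes. Intestinal epithelium is known for its strong response to type III interferons, which signal through a receptor made of the Ifnlr1 and Il10rb chains. The products of the genes described here work at successive steps, from factors that carry the signal (STAT2, IRF7) to a protein tag (ISG15). Further products are the OAS family, some members of which are enzymes that sense double-stranded RNA, and proteins that bind viral RNA (the IFIT proteins).

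The core of the ISRE was looked for in RefSeq promoter windows of build GRCm38.p6, which run from 250 bases before to 50 bases after each annotated start, as GAAANNGAAA or TTTCNNTTTC, its form on the other strand. Matches may overlap one another. Of 32851 windows of this length, 1131 (3.44%) held a match. Counted by gene, as below, 1079 of 27025 genes (3.99%) had a match in at least 1 window. The table had a window for 7 of the 9 genes, and 5 of the 7 held at least 1 match. These 5 stretches are shown because they match the core of the element that ISGF3 binds, but binding was not measured. They stand together with the stretch of *Oas1g*, the neighbour and close copy of *Oas1a*. All are written 5′ to 3′ on the strand of the gene, with the matches in capitals.
Stat2, plus strand, chr10:128270251-128270310: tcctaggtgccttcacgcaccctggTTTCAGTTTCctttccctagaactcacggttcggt
Isg15, minus strand, chr4:156200850-156200921: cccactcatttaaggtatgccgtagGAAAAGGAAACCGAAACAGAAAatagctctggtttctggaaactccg
Oas1a, minus strand, chr5:120907516-120907570: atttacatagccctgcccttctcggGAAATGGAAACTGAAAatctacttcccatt
Oas1g, minus strand, chr5:120887604-120887656: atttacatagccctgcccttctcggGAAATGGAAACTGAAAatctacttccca
Ifit1, plus strand, chr19:34640760-34640838: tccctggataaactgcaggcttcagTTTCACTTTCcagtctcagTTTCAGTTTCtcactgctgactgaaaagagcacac
Ifit3, plus strand, chr19:34583348-34583441: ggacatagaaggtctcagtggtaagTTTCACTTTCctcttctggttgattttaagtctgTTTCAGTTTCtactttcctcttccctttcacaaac

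*Isg15* had 3 overlapping matches in a row, *Oas1a*, *Ifit1* and *Ifit3* had 2 each and *Stat2* had 1. The *Oas1a* and *Oas1g* stretches were identical in 53 of 53 aligned bases. The windows of *Oasl2* and *Irf7* held no match, which says only that these letters are not in those windows. The 5 genes with a match had log2 fold changes (DM minus WT) of -0.68 for *Stat2*, -0.62 for *Isg15*, -0.52 for *Oas1a*, -0.92 for *Ifit1* and 0.17 for *Ifit3*. Among 38 other interferon-stimulated genes with a window, 13 (34.2%) held a match, and they were 6 of the 16 called lower in DM villi, 1 of the 2 called higher and 6 of the 19 not called, with 1 further gene, *Psmb9*, not analysed here and without a match.

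Of the 9 genes, 6 had an adjusted p under 0.05 and were lower in DM villi, where edgeR's quasi-likelihood test called 17.0% of 13346 genes lower and 19.7% higher. None of the 9 was higher, also at an unadjusted p under 0.05 and by DESeq2. The 3 DM libraries all lay below the 3 WT libraries for 4 of the 9 genes (24.2% of all genes tested) and above them for none (28.1% of all genes tested). Because the genes were chosen on this contrast, these counts describe them and nothing more is read from them. Their median log2 fold change, DM minus WT, was -0.68, and that of all genes tested was 0.02. All 9 passed the filter on low counts. In the text below, values are in the order of mice 1, 2 and 3, and log2 fold changes are DM minus WT with their standard error (n = 3 each).

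**Figure D1:**
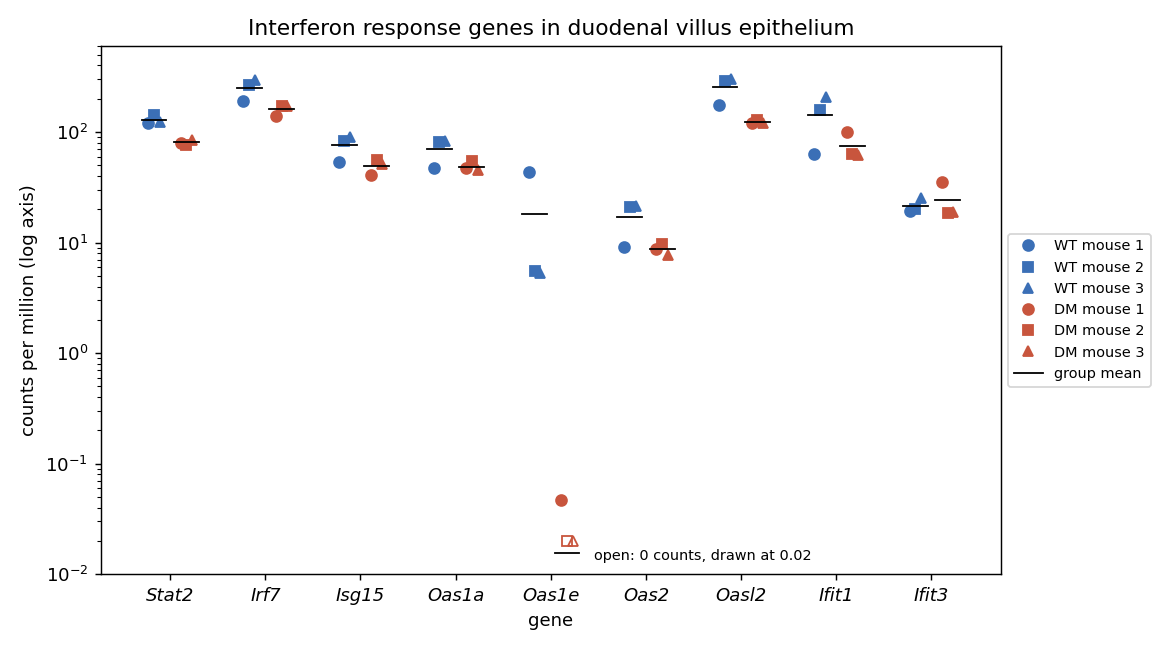
Level of the 9 genes in each of the 6 libraries, in CPM on a log axis. Blue symbols are WT mice and red symbols DM mice, the symbol shape gives the mouse number, black lines are group means, and open symbols mark 0 counts. *Oas1e* drops from between 5.30 and 43.2 CPM in WT mice to 0.0469 CPM or 0 in DM mice, while the other 8 genes shift by less than a log10 unit and the WT circles often lie level with the red symbols.

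*Stat2*, a STAT protein that serves mainly in interferon signalling, lies on chromosome 10 from 127707629 to 127729905 (mm9, plus strand). *Stat2* stood at 120.5, 143 and 123 CPM in WT villi and at 79.6, 76.9 and 84.5 CPM in DM villi. All 3 DM mice lay below all 3 WT mice, with little spread in either group, and the log2 fold change was -0.68 ± 0.11. *Irf9*, which lends the complex its DNA contact, stood at 63.8, 63.1 and 63.3 CPM in WT villi and at 53.5, 61.8 and 62.3 CPM in DM villi, a log2 fold change of -0.10 ± 0.11 (edgeR adjusted p = 0.505) that turned to 0.09 with scaling to library size alone. Whether *Stat2* differed from *Irf9* in its change was not tested.

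*Irf7*, the factor that amplifies type I interferon production, spans 148448605 to 148452380 on chromosome 7 (mm9, minus strand). *Irf7* stood at 191, 266 and 294 CPM in WT villi and at 139, 170 and 172 CPM in DM villi. The groups did not overlap, but WT mouse 1 lay closer to DM mouse 3 than to WT mouse 2. The log2 fold change was -0.64 ± 0.17, and DM villi held 64.0% of the WT mean. A stretch of 45 exonic bases is shared with *Phrf1* on the opposite strand, and the strand setting of the counting is not given in the sources used here.

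*Isg15* encodes a ubiquitin-like protein that is joined to other proteins during the interferon response, and it lies on chromosome 4 from 155573533 to 155574927 (mm9, minus strand). *Isg15* stood at 53.9, 83.7 and 90.2 CPM in WT villi and at 40.4, 56.2 and 51.4 CPM in DM villi. WT mouse 1 fell inside the DM range, and the other two WT mice lay above all DM mice. The log2 fold change was -0.62 ± 0.21. *Usp18*, which takes ISG15 off proteins again and damps the type I receptor, fell by 0.99 ± 0.21 on the log2 scale (adjusted p = 0.00661, edgeR), from 35.8, 59.2 and 63.1 CPM to 26.1, 28.5 and 24.8 CPM.

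Those OAS proteins that are active enzymes make short 2′-5′ linked adenylate chains when they meet double-stranded RNA. These chains activate RNase L, and OAS activity, that of the *Oas1e* product included, was not measured here. *Oas1e* gave the widest separation in the set. *Oas1e* (ENSMUSG00000066867, chromosome 5, 121236321 to 121245539, mm9, minus strand) had 1038, 102 and 105 counts in WT libraries and 1, 0 and 0 counts in DM libraries. In CPM these are 43.2, 5.54 and 5.30 against 0.0469, 0 and 0. A single read in DM mouse 1 was thus the whole signal of the mutant group, below the 3 counts read as detection. Summed over libraries, the level in WT was 1280 times that in DM, with an exact 95% interval of 229 to 50600 that covers counting error only.

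WT mouse 1 alone carried 1038 of the 1245 WT reads of *Oas1e*, and its level was 7.97 times the mean of the other WT mice. Without it, the WT to DM ratio was 347, with an exact 95% interval of 61.6 to 13800. The fitted log2 fold change was -9.71 ± 1.81 with all libraries and -7.96 without WT mouse 1 or -11.56 without DM mouse 1, and a fitted fold against a group at or under 1 read depends on the prior count. *Oas1e* made up 29.1% of the summed CPM of the 7 *Oas1* genes in WT mouse 1, 3.48% in WT mouse 2, 3.12% in WT mouse 3 and at most 0.055% in DM mice. The summed level of these 7 genes was more even, at 149, 159 and 170 CPM in WT villi and 85.3, 100 and 76.8 CPM in DM villi. *Oas1a* and *Oas1g* together made up 56.5% of the sum in WT mouse 1, 87.0% and 86.9% in the other WT mice, and 93.2% to 94.4% in DM mice.

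*Oas1a* lies at the other end of the cluster, from 121346265 to 121357536 on chromosome 5 (mm9, minus strand). *Oas1a* stood at 46.9, 80.6 and 82.8 CPM in WT villi and at 46.8, 54.4 and 45.0 CPM in DM villi. WT mouse 1 was within the DM range and the other WT mice were above it, and the log2 fold change was -0.52 ± 0.21. *Oas1g* showed the same order of mice, with 37.1, 57.8 and 64.6 CPM in WT villi against 32.8, 39.8 and 27.6 CPM in DM villi, and fell by 0.67 ± 0.22 on the log2 scale (adjusted p = 0.0437, edgeR). Its adjusted p was 0.124 without WT mouse 2, 0.135 without WT mouse 3, 0.123 without DM mouse 1 and 0.140 without DM mouse 3, and without WT mouse 1 the log2 fold change was -0.88. These genes are close copies, and the treatment of reads that match more than 1 gene is not given in the sources used here, so their separate counts are uncertain.

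*Oas2*, a form with a repeated OAS unit, opens the cluster at 121180342 to 121199862 on chromosome 5 (mm9, minus strand). *Oas2* stood at 9.16, 20.8 and 21.5 CPM in WT villi and at 8.77, 9.78 and 7.73 CPM in DM villi. WT mouse 1 was again level with the DM mice, and the log2 fold change was -0.97 ± 0.31. *Oas3*, the largest OAS enzyme and the next gene along, was measured at 105.5, 179 and 149 CPM in WT villi and at 55.6, 45.8 and 52.8 CPM in DM villi. There the groups were well apart, with a log2 fold change of -1.49 ± 0.19 (edgeR adjusted p = 0.000788).

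*Oas1b*, known in mice for its alleles that decide resistance to flaviviruses, had the largest change in the cluster after *Oas1e*. *Oas1b* stood at 16.4, 10.3 and 10.9 CPM in WT villi and at 2.67, 2.92 and 2.23 CPM in DM villi, a log2 fold change of -2.27 ± 0.25 (edgeR adjusted p = 0.000374). Its highest value was in WT mouse 1, as for *Oas1e*, which is separated from it only by *Oas1c*. *Oas1c* fell by 1.07 ± 0.30 on the log2 scale (adjusted p = 0.0219, edgeR), from 4.79, 3.75 and 4.55 CPM to 2.11, 2.64 and 1.47 CPM, but its adjusted p was 0.0573 without WT mouse 3, 0.0587 without DM mouse 1 and 0.0742 without DM mouse 3. *Oas1h* stayed at 1.52 CPM or less in all libraries and was not called (adjusted p = 0.584, edgeR), and *Oas1f* had 2 reads in DM mouse 1 and 0 elsewhere.

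*Oasl2* and *Oasl1* encode OAS-like proteins and sit side by side elsewhere on chromosome 5, *Oasl2* from 115346943 to 115362243 (mm9, plus strand). *Oasl2* stood at 177, 289 and 304 CPM in WT villi and at 119.5, 127 and 120.4 CPM in DM villi. The DM mice were tightly grouped below all WT mice, and the log2 fold change was -1.07 ± 0.19. *Oasl1*, which restrains translation of *Irf7* mRNA, gave 169.8, 265 and 301 CPM in WT villi and 141, 126 and 120.5 CPM in DM villi, a log2 fold change of -0.92 ± 0.20 (edgeR adjusted p = 0.00809).

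**Figure D2:**
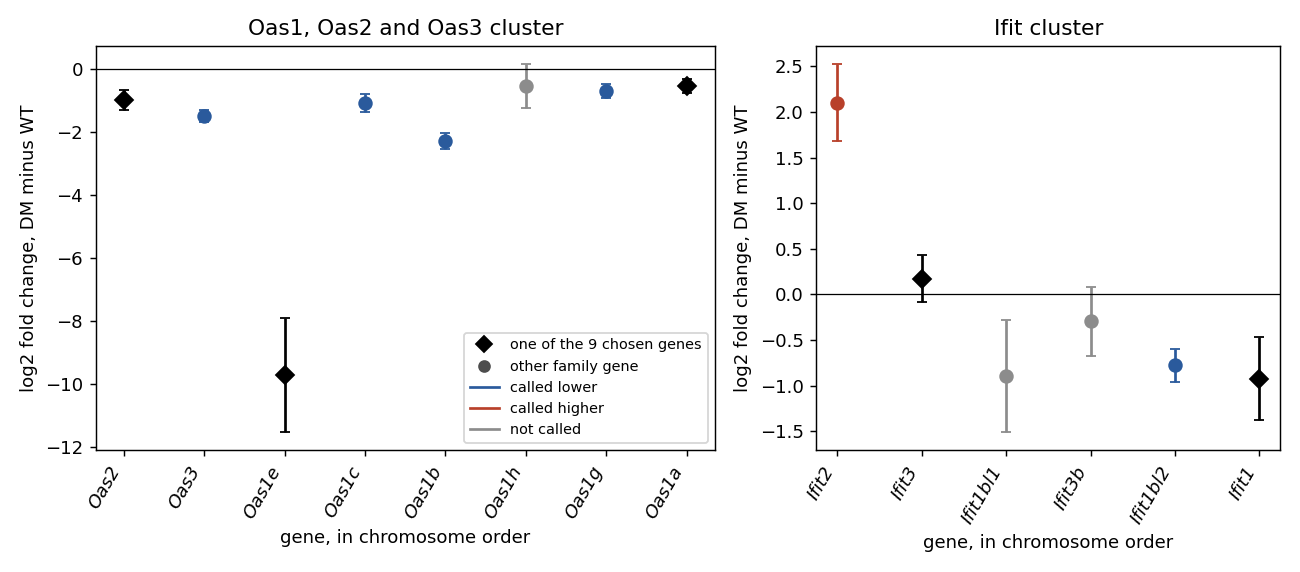
Log2 fold change (DM minus WT) with its standard error for the tested genes of the *Oas* cluster on chromosome 5 (left) and the *Ifit* cluster on chromosome 19 (right), in chromosome order and evenly spaced. Black diamonds are the chosen genes, and circles are other family genes, with blue called lower, red called higher and grey not called at an adjusted p of 0.05. All 8 *Oas* genes lie below 0, from -0.52 for *Oas1a* to -9.71 for *Oas1e* (*Oas1h* turns to 0.01 without WT mouse 3), whereas the *Ifit* genes run from 2.10 for *Ifit2* to -0.92 for *Ifit1*.

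The IFIT proteins bind viral RNA and block its translation, and their genes form a run on chromosome 19. *Ifit1*, which recognises RNA caps that lack ribose methylation, lies at the far end from 34715361 to 34724499 (mm9, plus strand). *Ifit1* stood at 63.1, 159.5 and 206 CPM in WT villi and at 100.3, 63.2 and 62.3 CPM in DM villi. The groups overlapped, because WT mouse 1 had the level of DM mice 2 and 3, and the log2 fold change was -0.92 ± 0.45. Its spread within WT was 3.26-fold from lowest to highest, the widest in the set after the 8.15-fold of *Oas1e*. *Ifit3*, a partner that stabilises IFIT1 on RNA in human cells, lies from 34658021 to 34663221 (mm9, plus strand). *Ifit3* stood at 19.2, 20.0 and 25.2 CPM in WT villi and at 35.0, 18.6 and 19.1 CPM in DM villi. It was the only one of the 9 genes with a positive log2 fold change, 0.17 ± 0.26, and without DM mouse 1, the highest library, this was -0.18.

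*Ifit2*, the first gene of the run, moved the opposite way. *Ifit2* stood at 2.83, 6.85 and 9.39 CPM in WT villi and at 32.2, 19.6 and 29.7 CPM in DM villi. All DM mice were above all WT mice, and it rose by 2.10 ± 0.42 on the log2 scale (adjusted p = 0.00834, edgeR), 4.27 times the WT mean. Without WT mouse 1 the log2 value was 1.74. Among the close copies of *Ifit1* and *Ifit3*, *Ifit1bl2* fell by 0.78 ± 0.18 on the log2 scale (adjusted p = 0.0117, edgeR), and neither *Ifit1bl1* (-0.89 ± 0.61, adjusted p = 0.310, edgeR) nor *Ifit3b* (-0.30 ± 0.38, adjusted p = 0.573, edgeR) was called. Without WT mouse 1, *Ifit1bl1* had a log2 fold change of -1.32 and an adjusted p of 0.00301. In all, 6 of the 10 other *Oas*, *Oasl* and *Ifit* genes tested fell and 1 rose, with a median log2 fold change of -0.84. That is 60% lower and 10% higher where all genes tested gave 17.0% and 19.7%, for a list made with earlier results known.

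Ratios within a library showed the split between *Ifit2* and *Ifit1* free of scaling. This ratio was picked after the values were seen, and it is given with no test. *Ifit2* reads amounted to 4.49%, 4.29% and 4.57% of *Ifit1* reads in WT mice, although *Ifit1* itself varied widely among them. In DM mice the same ratio was 32.1%, 30.9% and 47.7%. WT mouse 1 and DM mice 2 and 3 had the same *Ifit1* level, near 63 CPM, and differed in *Ifit2*. The ratio of *Ifit1bl1* to *Ifit1* was 107%, 166% and 160% in WT mice and 160%, 162% and 150% in DM mice, so it did not separate the groups. *Ifit1bl1* and *Ifit1* are close copies, as are *Ifit3* and *Ifit3b*, and their separate counts carry the uncertainty given for the *Oas1* genes, which extends to these ratios. *Ifit3* amounted to 30.5%, 12.5% and 12.3% of *Ifit1* in WT mice and to 34.9%, 29.4% and 30.6% in DM mice, with WT mouse 1 among the DM values.

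**Figure D3:**
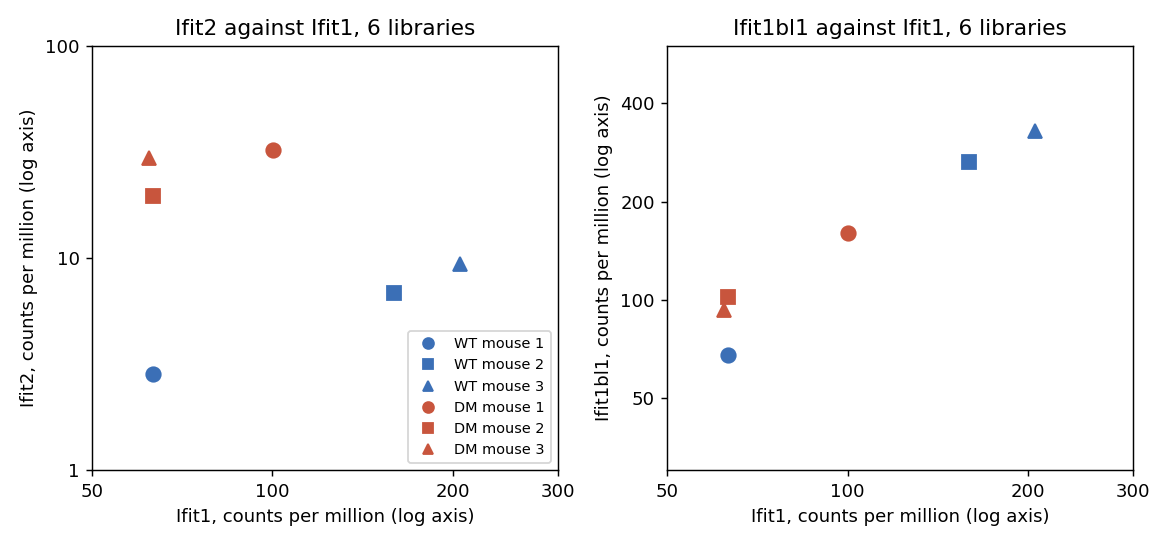
*Ifit2* (left) and *Ifit1bl1* (right) against *Ifit1* in each of the 6 libraries, in CPM on log axes, with WT mice in blue and DM mice in red. On the left the WT mice lie on a line of near-constant ratio (4.29% to 4.57%) and the DM mice lie above it (30.9% to 47.7%), and on the right both groups share 1 line apart from WT mouse 1.

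Per kilobase of exon, the level in WT villi was highest for *Isg15* (100 ± 25.6 CPM per kb), followed by *Irf7* (82.8 ± 17.6), *Oasl2* (66.1 ± 17.8), *Ifit1* (53.8 ± 27.4), *Oas1a* (35.1 ± 10.1), *Stat2* (29.2 ± 2.81), *Ifit3* (12.3 ± 1.86), *Oas1e* (10.5 ± 12.7) and *Oas2* (3.85 ± 1.56). Only *Stat2* and *Ifit3* were neighbours whose ranges of 1 SD around the mean did not meet. The place of *Oas1e* above *Oas2* rests on WT mouse 1, where *Oas1e* was 7.97 times the mean of the other WT mice. In DM villi the order of the first 7 was the same, *Isg15* at 65.2 ± 10.7 CPM per kb and *Ifit3* at 13.9 ± 5.36, then *Oas2* at 1.97 ± 0.230 and *Oas1e* at 0.00911 ± 0.0158. There *Irf7* and *Oasl2*, at 53.0 ± 6.10 and 31.5 ± 1.12, stood apart by more than their SDs. So did *Oas1a* and *Stat2*, at 24.4 ± 2.49 and 18.2 ± 0.868, *Ifit3* and *Oas2*, and *Oas2* and *Oas1e*. Other neighbours, such as *Oasl2* and *Ifit1*, the latter at 28.3 ± 8.17, did not.

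WT mouse 1 had the lowest level of the 3 WT mice in 8 of the 9 genes and the highest in 1, *Oas1e*. Over all 13346 genes tested it was the lowest in 38.1% and the highest in 37.5%. For 5 of the 9 genes its value lay within the range of the DM mice, as it did for 22.2% of all genes tested. Among interferon-stimulated genes outside the set it was the lowest WT mouse in 43 of 50 genes (86.0%), with a median log2 ratio to the mean of the other WT mice of -0.56, and it lay within the DM range in 10 of the 50. It was the lowest in 8 of 10 other *Oas*, *Oasl* and *Ifit* genes (80%) and in 11 of 17 sensors and adaptors (64.7%). For receptors, kinases and factors it was the lowest in 6 of 21 genes (28.6%). Differences between the lists were not tested.

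The count of 6 genes lower in DM villi moved with the libraries used. It was 8 without WT mouse 1 (where 17.1% of all genes were called lower), 2 without DM mouse 1 (14.7%) and 3 without any 1 of the other 4 mice (11.9% to 13.5%), and nothing is read from these counts. Without WT mouse 1 the log2 fold changes were -0.75 for *Oas1a*, -1.27 for *Oas2*, -1.28 for *Oasl2* and *Ifit1*, -0.82 for *Isg15*, -0.80 for *Irf7* and -0.73 for *Stat2*. With library size alone in place of TMM, which shifts the median of all genes by 0.19 on the log2 scale, 3 of the 9 were lower (10.7% of all genes), and all genes split into 3732 higher and 1425 lower instead of 2632 and 2273. That scaling moved each of the 9 by about this shift, *Ifit3* to 0.37.

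**Figure D4:**
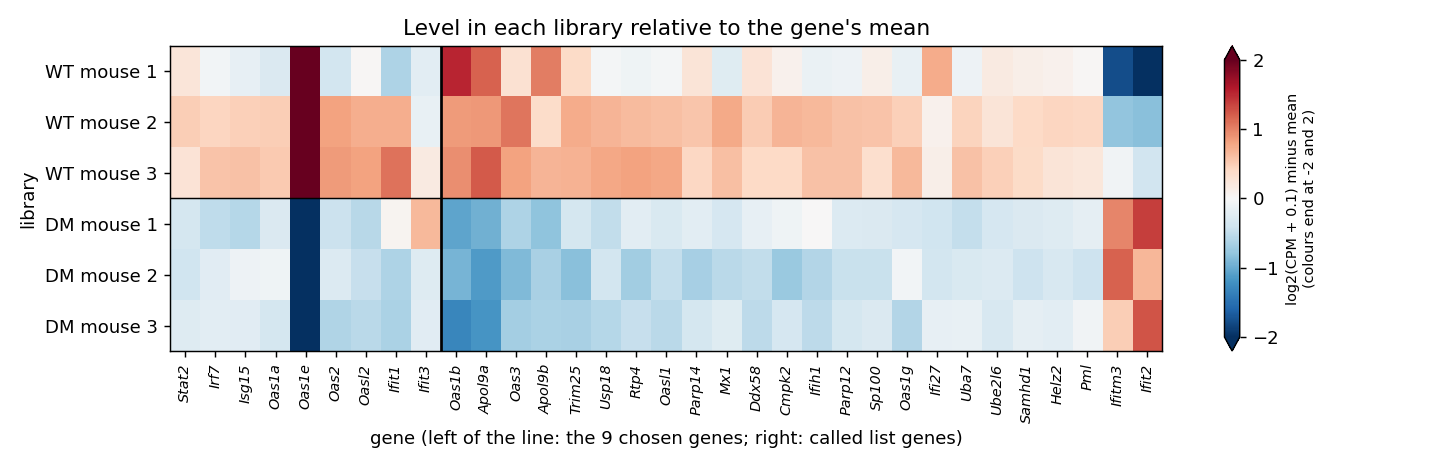
Level of each gene in each library relative to the gene's mean over the 6 libraries, as log2(CPM + 0.1), for the 9 chosen genes (left of the line) and for the other interferon-stimulated genes called at an adjusted p of 0.05 (right of the line). Red is above and blue below the mean, and colours end at -2 and 2. WT mouse 1 is less red than WT mice 2 and 3 for most genes, redder for *Oas1b*, *Apol9b* and *Ifi27*, and past the blue end of the scale for *Ifit2*, while all 6 libraries lie past the ends of the scale for *Oas1e*.

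Outside the set, 50 further interferon-stimulated genes were tested, of which 22 (44.0%) fell in DM villi, 2 (4.00%) rose and 26 were not called, against the 17.0% and 19.7% of all genes given above. This list and the list of other family genes were, like the 9 genes, made with earlier results of these data known. The median log2 fold change of the 50 was -0.46. Those of the 22 called lower ran from -0.44 to -2.27, and 5 were at -1 or beyond. *Oas1b* fell most, and *Apol9a*, an interferon-induced apolipoprotein L gene with a near-identical neighbour, came next, from 113, 91.2 and 117 CPM in WT villi to 25.7, 22.8 and 22.0 CPM in DM villi (log2 fold change -2.19 ± 0.14, adjusted p = 4.1e-05, edgeR). Unlike most of the list, *Apol9a* had no low value in WT mouse 1. The 22 also included *Usp18*, *Oas3*, *Oasl1*, *Mx1*, *Ddx58*, *Ifih1*, *Parp14* and *Uba7*. With WT mouse 1 left out 31 of the list were lower, and with library size alone 13 were.

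Both genes that rose separated the groups. *Ifitm3*, whose product keeps enveloped viruses from fusing with the cell, stood at 1.75, 3.59 and 5.91 CPM in WT villi and at 12.3, 14.3 and 8.77 CPM in DM villi (1.66 ± 0.41 on the log2 scale, adjusted p = 0.0149, edgeR). The other was *Ifit2*. *Ifitm3* missed the threshold without WT mouse 2 (adjusted p = 0.0572, edgeR) and without DM mouse 2 (adjusted p = 0.0586, edgeR), and without WT mouse 1 its log2 fold change was 1.31. In all, every DM mouse lay below every WT mouse for 22 of the 50 genes (44%, against 24.2% of all genes tested). Every DM mouse lay above every WT mouse for 5 of the 50 (10.0%, against 28.1% of all genes tested). Besides *Ifit2* and *Ifitm3*, the others were *Ifi44*, *Zbp1* and *Epsti1* (0.25 ± 0.12, adjusted p = 0.142, edgeR). These others were named after their values were seen. *Ifi44* stood at 4.41, 29.0 and 29.4 CPM in WT villi and at 69.8, 73.3 and 47.3 CPM in DM villi (1.60 ± 0.71, adjusted p = 0.144, edgeR), and without WT mouse 1 the log2 fold change was 1.12 (adjusted p = 0.0017, edgeR). *Zbp1*, a sensor of Z-form nucleic acids, stood at 60.6, 132 and 161 CPM against 168, 211 and 205 CPM (0.73 ± 0.33, adjusted p = 0.134, edgeR), and without WT mouse 1 the log2 fold change was 0.41 (adjusted p = 0.0508, edgeR).

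**Figure D5:**
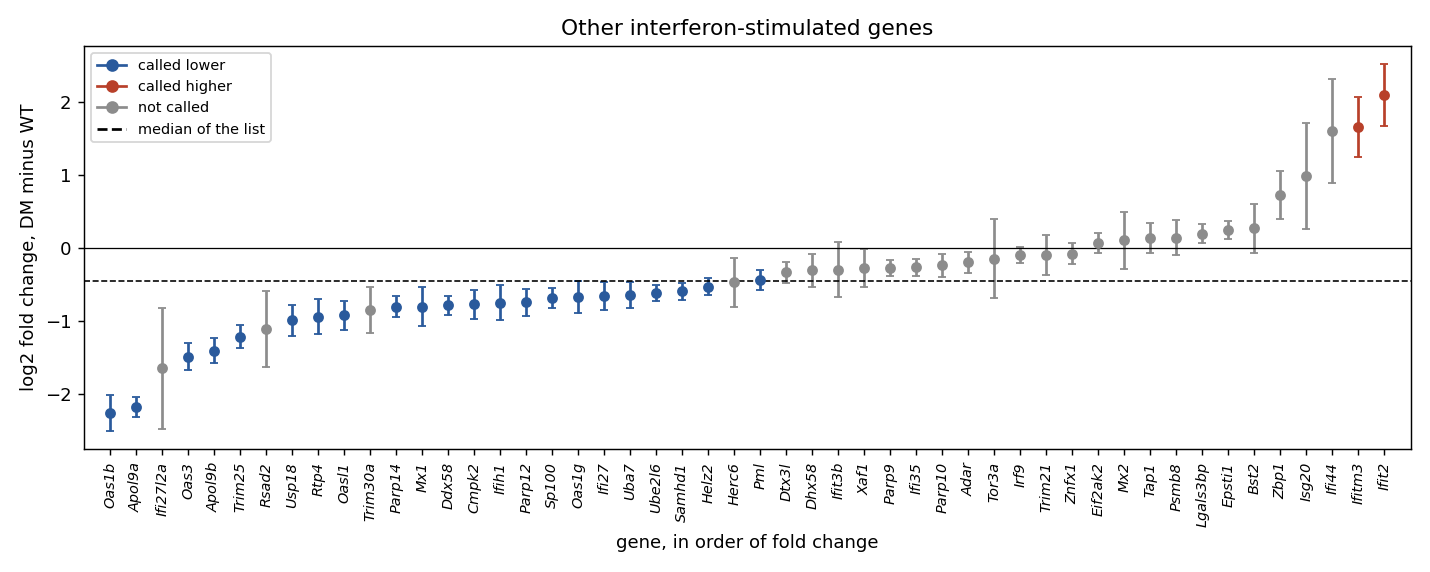
Log2 fold change (DM minus WT) with its standard error for the 50 other interferon-stimulated genes, in order of size, with blue called lower, red called higher and grey not called at an adjusted p of 0.05. The dashed line is the median of the list, -0.46, and most genes lie between -1 and 0, with *Oas1b* and *Apol9a* near -2.2 at one end and *Ifit2* at 2.10 at the other.

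Guanylate-binding proteins and immunity-related GTPases, which respond mainly to interferon-γ, were described as a list of their own. Of 11 tested, 1 fell (9.09%, against 17.0% of all genes) and none rose, with a median log2 fold change of -0.27, and at an unadjusted p under 0.05 there were 2 lower and 0 higher. *Irgm2* was the one, at 66.0, 60.8 and 61.8 CPM in WT villi and at 41.4, 41.3 and 42.8 CPM in DM villi (-0.59 ± 0.10, adjusted p = 0.00297, edgeR). DESeq2 called 2 of the list, and with WT mouse 1 left out edgeR called 4. Whether this list differed from the other stimulated genes was not tested.

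Of 21 interferon genes looked for, 3 are in the table, *Ifng*, *Ifnk* and *Ifne*, with at most 2, 8 and 1 reads in any library, too few to be tested. The other 18 were not analysed here. Reads in polyadenylated RNA from epithelium do not measure interferon made by other cells.

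Of 21 receptor chains, kinases and factors tested, 7 fell (33.3%, against 17.0% of all genes) and 2 rose (9.52%, against 19.7%), with a median log2 fold change of -0.22. *Ifnlr1*, the chain specific to type III interferons, fell by 0.98 ± 0.16 on the log2 scale (adjusted p = 0.00215, edgeR), from 61.5, 52.8 and 42.7 CPM to 24.8, 25.2 and 29.8 CPM, without overlap. Its partner chain *Il10rb* was not called (-0.26 ± 0.14, adjusted p = 0.187, edgeR). Neither chain of the type I receptor was called, *Ifnar1* with 0.13 ± 0.10 (adjusted p = 0.361, edgeR) and *Ifnar2* with -0.10 ± 0.12 (adjusted p = 0.559, edgeR). With library size alone, *Ifnar1* had an adjusted p of 0.0366 and *Ifnar2* a log2 fold change of 0.10. Of the interferon-γ receptor chains, *Ifngr2* fell by 0.62 ± 0.11 (adjusted p = 0.00313, edgeR) and *Ifngr1* was not called (0.09 ± 0.11, adjusted p = 0.559, edgeR).

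*Socs1*, the feedback inhibitor of JAK kinases, had the largest fall of this list, from 17.1, 13.6 and 10.4 CPM in WT villi to 2.67, 5.93 and 6.54 CPM in DM villi (-1.44 ± 0.34, adjusted p = 0.0117, edgeR), and *Usp18*, described above, had the next. *Irf8*, better known from myeloid cells, rose from 91.6, 122 and 107 CPM to 161, 227 and 196 CPM (0.87 ± 0.16, adjusted p = 0.00372, edgeR). The myeloid marker *Itgam* stood at 3.29, 3.59 and 3.89 CPM in WT villi and at 4.60, 5.24 and 6.64 CPM in DM villi. *Cd68* averaged 0.577 CPM in WT and 0.938 CPM in DM villi, and *Lyz2* 0.247 and 0.313 CPM. *Csf1r* and *Siglech* went the other way, from 0.22 to 0.125 CPM and from 0.39 to 0.11 CPM. The part of myeloid cells in the rise of *Irf8* was not tested. *Irf2bp2*, a corepressor that binds IRF2, rose from 39.7, 42.7 and 35.3 CPM to 59.0, 59.4 and 58.9 CPM (0.59 ± 0.11, adjusted p = 0.00451, edgeR).

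Among 17 tested sensors of foreign nucleic acid and their adaptors, 6 fell (35.3%, against 17.0% of all genes) and 2 rose (11.8%, against 19.7%). The median log2 fold change was 0.03, and 10 of the 17 values were positive. *Ddx58*, which encodes the RNA sensor RIG-I, fell by 0.79 ± 0.13 on the log2 scale (adjusted p = 0.00259, edgeR) and *Ifih1*, which encodes MDA5, by 0.75 ± 0.24 (adjusted p = 0.0400, edgeR). *Ifih1* overlapped between the groups and missed the threshold with any of 4 libraries left out, WT mice 2 and 3 and DM mice 2 and 3. Both risers sense DNA. *Mb21d1*, which encodes cGAS, rose from 0.458, 0.272 and 0 CPM in WT villi to 1.36, 2.36 and 1.47 CPM in DM villi (2.76 ± 0.74, adjusted p = 0.0197, edgeR), from at most 11 reads in a WT library. Its adjusted p was 0.0630 without WT mouse 2 and 0.0778 without DM mouse 2, and without WT mouse 1 the log2 fold change was 3.65. *Aim2* rose by 1.22 ± 0.39 (adjusted p = 0.0446, edgeR), with DM mouse 3 inside the WT range and an adjusted p of 0.120 without WT mouse 1. It missed the threshold without WT mouse 2, DM mouse 1 or DM mouse 2 as well.

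Across the 6 libraries, the tested genes whose log2 CPM was most like that of *Oas1e* were *Dhrs3* and *Thap11* (Pearson r = 0.998 each) and *Gm5640*, *Gm15675* and *Derl1* (r = 0.997 each). These r values describe 6 points in which the gap between the groups and WT mouse 1 carry most of the range, and no test is given. Over the 5 libraries without WT mouse 1 the r values of the same genes were 0.995 to 0.999. The genes had been picked with those libraries, in which the gap between the groups remains, so this is no separate check. *Gm15675* stood at 93.6, 31.9 and 34.4 CPM in WT villi and 7.46, 6.86 and 6.92 CPM in DM villi, and *Gm5640*, nearest to *Oas1e* in size of change, had 55, 13 and 11 reads in WT libraries and 0 in all DM libraries. None of the 5 is on the interferon lists used here.

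Bulk libraries cannot tell fewer cells of a type from less RNA per cell. The summed level of 17 leukocyte markers ran from 99.8 to 203 CPM in WT villi and from 92.1 to 135 CPM in DM villi (exact two-sided permutation p = 0.3, where 0.1 is the smallest that 3 against 3 mice can give). WT mouse 1 had the lowest of the WT sums and the other WT mice lay above all DM mice, so that the difference, DM minus WT, was -56.2 CPM with all mice, -89.1 CPM without WT mouse 1 and -37.2 CPM without WT mouse 2. Of the 11 markers tested, 8 had a negative log2 fold change, the median was -0.91 and 2 fell (18.2%, against 17.0% of all genes), namely *Ptprc*, the pan-leukocyte antigen CD45, by 1.29 ± 0.26 on the log2 scale (adjusted p = 0.00545, edgeR), and *Cd8a*. *Cd3e* of T cells was not called (-1.13 ± 0.39, adjusted p = 0.0528, edgeR), and without WT mouse 1 it was lower (-1.46, adjusted p = 0.00209, edgeR). WT mouse 1 had the lowest value of the WT mice in 11 of 11 of these markers, as in most interferon-stimulated genes. The B cell markers *Cd79a* and *Ms4a1* had at most 2 reads in any WT library and at most 5 and 14 reads in a DM library. *Itgam*, with its values given beside *Irf8*, was not called (0.61 ± 0.23, adjusted p = 0.0698, edgeR), and the monocyte marker *Csf1r* had at most 6 reads in any library.

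Stromal and endothelial markers summed to 0.252 to 0.870 CPM in WT villi and 0.948 to 4.92 CPM in DM villi, with *Col1a1* at 0 in 4 of the 6 libraries. Markers of villus enterocytes summed to 51800 to 61400 CPM in WT villi and 29800 to 33100 CPM in DM villi (exact two-sided permutation p = 0.1, the smallest possible), and 7 of 10 fell (70.0%, against 17.0% of all genes), *Vil1* among them. *Fabp1* rose (0.82 on the log2 scale, adjusted p = 0.0331, edgeR). WT mouse 1 was the highest of all libraries in this sum, and the difference, DM minus WT, was -24700 CPM with it and -22300 CPM without it. The part of leukocytes and of the lower enterocyte sum in the levels of the interferon-stimulated genes was not tested.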

How the data were processed

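The files hold 1 table of raw counts per gene for 6 bulk RNA-seq libraries. Per the labels and the study's methods, the authors aligned reads to mm9 with HISAT2, counted them with featureCounts and deposited the counts without normalization or pooling; the strand setting and the treatment of reads with several matches are not given in the sources used here. Symbols, coordinates and exon lengths came from GENCODE for mm9, which held 20032 of the 20073 Ensembl identifiers.

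Counts were analysed in R 4.3.3. Genes were filtered by filterByExpr, scaled by TMM, fitted by glmQLFit (robust) and tested by glmQLFTest in edgeR 4.0.16, with Benjamini-Hochberg adjustment over the 13346 genes kept and a threshold of 0.05. The standard error of a log2 fold change was taken as its size over the square root of the F statistic. Marker sums were compared by exact permutation tests. On simulated counts for this comparison, edgeR called 100 of 100 genes with a log2 change of 2. It called 78 of 100 with a change of 1 and 12 of 11923 unchanged genes. Whether such shares hold for genes with a wide spread between mice was not tested. In the measured counts *Ifi44*, at 1.60 ± 0.71, and *Ifit1bl1*, at -0.89 ± 0.61, were not called with all mice. Intervals and floors cover counting error only, since reads carry no molecular identifiers.

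The members and lists were chosen with earlier results of these data known. Genes named are the 9 members, the other *Oas* and *Ifit* genes, *Irf9*, the receptor chains, the defining markers and *Smad4*. Also named are the 2 largest called rises and falls of each interferon list and the 5 genes most like *Oas1e* (log2 CPM, prior count 2). Other genes are named outside these rules, as later picks or examples. Among them are the markers *Itgam*, *Cd68*, *Lyz2*, *Csf1r*, *Siglech*, *Cd8a*, *Cd79a*, *Ms4a1* and *Fabp1*. The lists overlap, with 6 family genes, 2 receptors or factors and 5 sensors also among the stimulated genes, and 1 gene first placed on the stimulated and factor lists is not reported here. The alternatives were DESeq2 1.42.0, RLE factors, library size alone, no low-count filter, the sex of the mice as a covariate, the replicate number as a block, a log2 fold threshold of 2 and each mouse left out in turn.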

Additional observations from a re-analysis of the deposited data

How the results depend on the processing

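With 3 mice per group, exact tests of a single value cannot pass 0.05. Leaving out each mouse in turn gave 2 to 8 of the 9 genes lower, where 11.9% to 17.1% of all genes were lower. It gave 15 to 31 stimulated genes lower and 1 to 3 higher. Of the other lists it called 5 to 8 family genes, 8 to 9 receptors, kinases and factors, 1 to 4 GTPases and 4 to 8 sensors. It gave 1812 to 2783 genes higher and 1630 to 2361 lower over all genes. A log2 fold threshold of 2 left 406 genes higher and 302 lower. Of the 9 genes it left 1, *Oas1e*, which was chosen for its absence from the mutant libraries. It also left 1 stimulated gene higher and 2 lower, 2 family genes, 1 sensor, and 0 receptors, kinases and factors or GTPases. Library size alone left 1425 genes lower, 3 of the 9 and 13 stimulated genes lower, and an enterocyte marker difference (DM minus WT) of -18800 CPM. DESeq2, no filter and the sex covariate each called 2 GTPases. Signs turned for some genes that were not called in the fit of all mice: with each mouse left out *Ifit3* ran from -0.18 (without DM mouse 1) to 0.33, *Oas1h* from -1.05 to 0.01 (without WT mouse 3) and *Muc2* from -0.93 to 0.13 (without WT mouse 2). They turned for *Irf9* to 0.09 and *Ifnar2* to 0.10 with library size alone and for *Muc2* to 0.60 with the block and 0.59 with sex. The cause was not tested.

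Replicate numbers did not pair the mice: deviations of same-numbered mice correlated at 0.0224, -0.109 and 0.0123. A fit with the numbers as a replicate block gave 2084 genes higher and 1750 lower (13.1% of all genes tested). It gave 5 of the 9 genes lower, and 16 stimulated genes lower and 3 higher. *Oas1c* (adjusted p = 0.0526), *Oas1g* (0.0627), *Ifih1* (0.107) and *Aim2* (0.139, all edgeR) missed the threshold under the block. *Ifih1* also missed it with library size alone (0.118), no filter (0.0559) and sex (0.0665), *Aim2* with no filter (0.0994) and sex (0.0758), and *Oas1g* with library size alone (0.132, all edgeR).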
